A study of Mus musculus with 5 samples.

Results

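The 36 genes described here encode the enzymes of cholesterol synthesis and of fatty acid synthesis, the proteins that regulate them, and a pair of cholesterol exporters, in mouse sarcoma cells. They were taken from a named list, of 20014 named genes on the array, and fall into 17 sterol enzymes, 11 fatty acid enzymes, 6 regulators or sterol carriers and 2 exporters. Each gene was represented by its brightest probe, and all 36 were well above background on all 5 arrays, so no member was lost to that filter.

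Cholesterol and fatty acids are both built from acetyl-CoA. Transcription factors of the SREBP family, encoded by Srebf1 and Srebf2, switch on the enzymes of both pathways: Srebf2 acts mainly on sterol genes and the main hepatic form of Srebf1 on fatty acid genes. SCAP escorts the SREBPs to the Golgi for activation when sterols are scarce, and INSIG proteins hold the complex back in the endoplasmic reticulum when sterols are plentiful. Sterol surplus instead activates the liver X receptors, whose targets include the exporters Abca1 and Abcg1.

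The cells were tumour cell lines from soft tissue sarcomas of mice whose background mixed ICR, 129 and C57/BL6, and all of them, controls too, carried EWS/ATF1 alleles that doxycycline switches on. EWS/ATF1 joins part of EWS to the DNA-binding part of ATF1, a factor of the CREB family that binds cAMP response elements, and drives clear cell sarcoma in humans. The groups were a control, a low-dose and a high-dose doxycycline culture at 3 h, and a high-dose culture and a control at 48 h. Each group was 1 array, so no difference between arrays has a replicate behind it. The doxycycline concentrations, whether the controls received any, and the line used for each array are items not given in the sources used here. Differences between lines and between treatments cannot be told apart.

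Levels below are log2 signals minus the 75th percentile of the array, and differences are log2 differences of such levels. The limit for calling a gene higher or lower was 2-fold, which is 1 on the log2 scale. The error given by the scanner software for a difference was between 0.204 and 0.331 among the members, with a median of 0.204 in every comparison, and it leaves out the variation between cultures. The 75th percentile of signal lay between 420 and 725 on the 5 arrays, and between 30884 and 33427 of the probes on each array were well above background.

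Other genes show how far the arrays differed apart from the lipid genes. Fos, an immediate early gene, stood at -2.22 on the control, -0.50 on the low-dose and 2.18 on the high-dose array at 3 h, and at 2.86 on the high-dose array against -2.22 on the control at 48 h. The 8 proliferation genes on the list were all higher on the 48 h high-dose array than on its control, by a median of 5.91 (range 3.24 to 6.86), and 0 of 8 were called at 3 h in either direction with high dose. At 48 h all 6 fibroblast markers were lower with high dose (median -2.70). The fibroblast markers spanned -4.86 to -1.21 on that array and -1.79 to 1.596 on its control. Macrophage markers were above background for 7 of 8 genes on the 48 h high-dose array and for 4 of 8 on its control, and for 7, 8 and 4 of 8 from control to high dose at 3 h; their levels spanned -5.09 to 5.30 and -7.67 to 2.89 on the 48 h arrays. The part of dividing cells, of macrophages or of fibroblasts in the lipid gene differences was not tested. Within an RNA pool of this kind, fewer cells of a type and less RNA per cell cannot be told apart.

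Adipocytes store and make much of the body's lipid, and their markers were present in part. Between 4 and 6 of 9 adipocyte markers were above background on each array, and Cidec and Cfd were below it on all 5. Fabp4, a fatty acid carrier of adipocytes, was at least 12.7-fold lower with high dose at 48 h than in the control, a bound set against the dimmest signal above background. Of the genes of the neural crest, melanocyte and Schwann lineage, 8 of 10 were above background on every array, and Dct was among those below it on all. Ngfr, a neural crest receptor, stood at -2.20 on the 48 h high-dose array against 4.25 on its control, and between 3.99 and 4.35 on the 3 h arrays. Over the 8 measured genes of that list the 48 h median was -0.29, with 2 lower and 0 higher at 2-fold. Epithelial markers were above background for 0 to 2 of 4 genes per array; the 2 were Epcam and Krt18 on the 3 h high-dose array, where Epcam was at least 7.26-fold above the control and 17.5-fold above the low dose. The part of this in the Fasn and Gpam values of that array was not tested.

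The promoter windows of 4 sterol genes that passed 2-fold in at least 1 comparison are shown because each has a single annotated start. They are the 250 bases before the start, from RefSeq on build GRCm38.p6, written along the gene's strand with CCAAT boxes and the cAMP response element core TGACG in capitals. Insig1, the sterol-sensing brake, has its window at chr5:28071162-28071411 on the plus strand. The window of Mvk, mevalonate kinase, lies at chr5:114444019-114444268 on the plus strand. Mvd, mevalonate diphosphate decarboxylase, has chr8:122443423-122443672 on the minus strand. That of Lss, lanosterol synthase, is chr10:76531355-76531604 on the plus strand.
Insig1: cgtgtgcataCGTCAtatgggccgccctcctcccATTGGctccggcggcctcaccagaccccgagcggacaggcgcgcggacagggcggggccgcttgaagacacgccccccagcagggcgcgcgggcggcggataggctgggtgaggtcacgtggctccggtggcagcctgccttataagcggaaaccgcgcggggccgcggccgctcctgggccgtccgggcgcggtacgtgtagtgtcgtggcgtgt
Mvk: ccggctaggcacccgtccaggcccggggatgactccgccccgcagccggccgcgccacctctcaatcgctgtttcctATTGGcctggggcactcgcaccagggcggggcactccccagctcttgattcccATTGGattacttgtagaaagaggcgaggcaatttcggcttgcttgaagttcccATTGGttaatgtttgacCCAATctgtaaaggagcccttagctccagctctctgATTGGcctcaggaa
Mvd: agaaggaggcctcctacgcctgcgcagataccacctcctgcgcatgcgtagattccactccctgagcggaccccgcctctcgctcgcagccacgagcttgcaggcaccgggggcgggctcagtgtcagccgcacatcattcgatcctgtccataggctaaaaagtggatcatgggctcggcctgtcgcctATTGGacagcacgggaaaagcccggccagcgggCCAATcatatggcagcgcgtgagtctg
Lss: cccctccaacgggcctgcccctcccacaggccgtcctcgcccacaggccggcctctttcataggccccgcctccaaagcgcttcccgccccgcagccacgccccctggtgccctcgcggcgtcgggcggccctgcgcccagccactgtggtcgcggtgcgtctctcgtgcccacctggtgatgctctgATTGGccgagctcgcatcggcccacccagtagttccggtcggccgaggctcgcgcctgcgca
The Mvk window holds 5 CCAAT boxes counting both strands, the Mvd window 2, and the Insig1 and Lss windows 1 each. Insig1 also holds 1 TGACG core, on the other strand.

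The sterol regulatory element was searched as TCACNCCAC, and 1 member window held it. That was Hmgcs1, HMG-CoA synthase, at chr13:119690204-119690232 on the plus strand, with the element in capitals.
Hmgcs1: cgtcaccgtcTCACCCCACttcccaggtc
Windows were found for 28 of the 36 members, 36 windows in all. Fdps, Fdft1, Sqle, Scd1, Scd2, Fads1, Stard4 and Abcg1 had none in the table used. Each motif was read on both strands of the 250 bases before the start, in 32851 windows of all genes. CCAAT stood in 13 of 17 windows of sterol enzymes (76.5%) and in 4 of 8 of fatty acid enzymes, against 33.9% of all windows. By gene, 13 of 14 sterol enzymes with a window held it in at least 1 of their windows. The share of all genes counted in that way was not computed, and the share per window is not its like. The sterol regulatory element stood in 1.05% of all windows. The full cAMP response element, TGACGTCA, stood in 0 of 36 member windows and in 1.55% of all windows, and its core TGACG, which lies within it, in 8 of 36 (22.2%) against 17.8%. A letter match is a description of the sequence and not of binding, and its part in the differences was not tested.

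**Figure D1:**
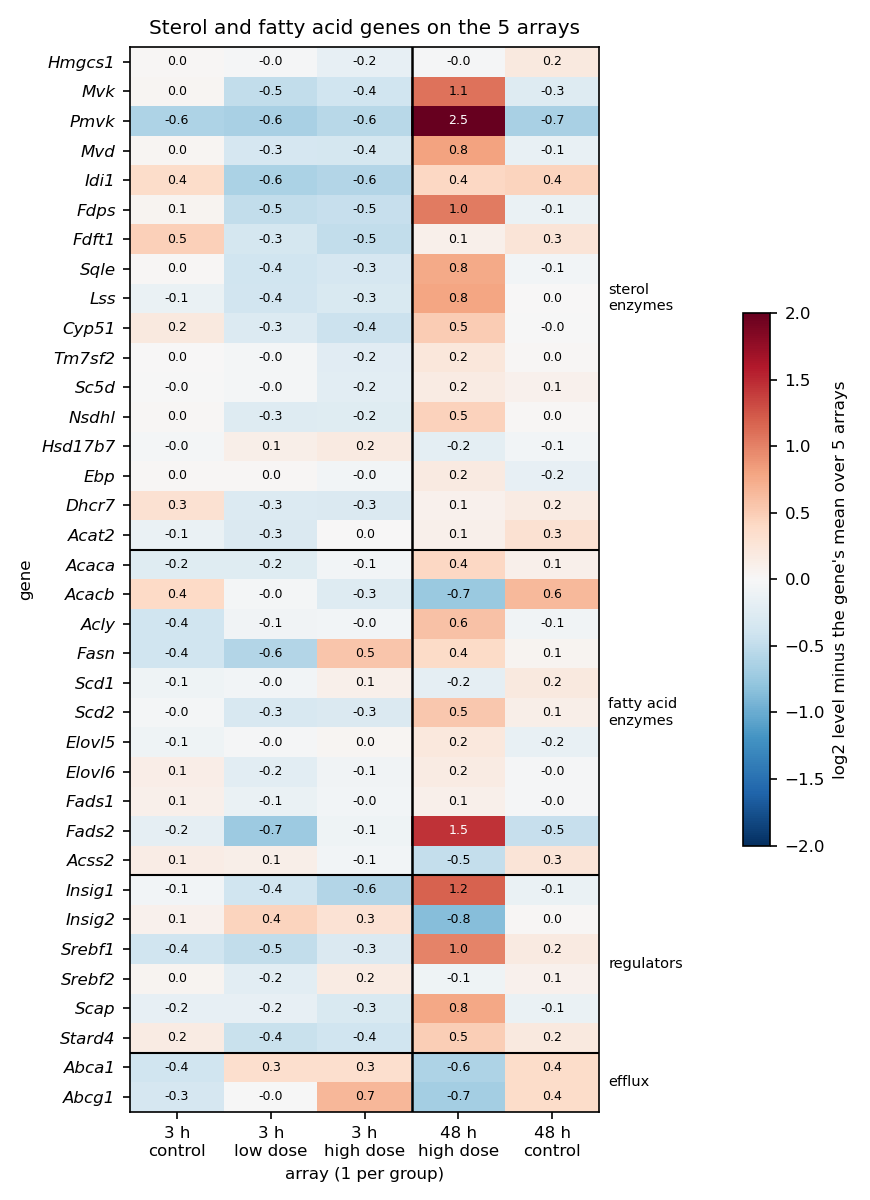
Level of each of the 36 genes on the 5 arrays, as log2 level minus that gene's mean over the arrays (colour, and printed to 1 decimal), with 3 h arrays on the left and 48 h arrays on the right. Most sterol enzymes are blue on both doxycycline arrays at 3 h, and Pmvk, Mvk, Fdps, Fads2, Insig1 and Srebf1 are deepest red at 48 h with high dose.

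At 3 h the sterol enzymes stood lower with doxycycline than in the control, by less than 2-fold. The median difference over the 17 enzymes was -0.27 at high dose, with 14 of 17 below 0, and -0.28 at low dose, with 15 of 17 below 0. Over all measured genes the medians were -0.01 and 0.01, and 52.2% and 48.3% of genes were below 0. No enzyme passed 2-fold at either dose. The 2-fold limit was passed upward by 1.86% and downward by 1.44% of all genes with high dose, and by 0.761% and 0.583% with low dose. At a 1.5-fold limit 4 of the 17 enzymes were lower at high dose (23.5%), against 5.15% of all genes, and 2 of 17 at low dose (11.8%), against 2.51%. The doses share 1 control array and are not independent of each other.

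The widest gap was in Idi1, which isomerises isopentenyl diphosphate, and in Fdft1, squalene synthase, which commits the pathway to sterols. Idi1 stood at 1.43 on the control, 0.43 on the low-dose and 0.47 on the high-dose array at 3 h, and at 1.47 on the high-dose array against 1.51 on the control at 48 h. The doxycycline arrays of 3 h thus lay 0.95 or more below each of the other 3 arrays, and the differences from the 3 h control were -0.95 at high dose and -0.999 at low dose. Fdft1 read 1.91 on the control, 1.09 at low dose and 0.95 at high dose at 3 h, then 1.54 with high dose against 1.703 in the control at 48 h. It was 0.96 lower at high dose and 0.82 lower at low dose, short of 2-fold. A dimmer second Fdft1 probe went further, with a difference of -2.46 at high dose and -2.75 at low dose, but it was also 2.45 lower in the 48 h control than in the 3 h control. On that probe the 3 h control alone stood high, at -1.24 against -4.46 to -3.69 on the other arrays.

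Cyp51, lanosterol demethylase, was the third widest at high dose, with -1.23 in the control, -1.69 at low dose and -1.86 at high dose. Its difference was -0.63 at high dose and -0.46 at low dose. Dhcr7, a terminal sterol reductase, differed by -0.60 at high dose and -0.58 at low dose. Fdps, farnesyl diphosphate synthase, differed by -0.52 and -0.56, and Mvk by -0.44 and -0.53. Smaller differences belonged to Mvd (-0.39 at high dose), Sqle, squalene epoxidase (-0.36), Nsdhl, which helps remove sterol methyl groups (-0.27), and Tm7sf2, a sterol reductase (-0.24). Sc5d, a sterol desaturase, stood at -0.21, Hmgcs1 at -0.19 and Lss at -0.17, which are near or below the scanner error. Ebp, a sterol isomerase, was at -0.07. Pmvk, phosphomevalonate kinase, at 0.06, Acat2, the cytosolic thiolase that starts the pathway, at 0.14, and Hsd17b7, a sterol ketoreductase, at 0.22 were the enzymes above 0 at high dose.

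The 48 h control gave a second control array to set beside the 3 h arrays, though some cell type markers differed between the controls, as given below. For 13 of the 17 sterol enzymes (76.5%) both doxycycline arrays of 3 h lay below both controls, whereas this held for 22.3% of 13919 measured genes. The gap was 0.95 for Idi1, 0.61 for Fdft1 and 0.44 for Dhcr7, and for 6 of the 13 (Hmgcs1, Mvk, Mvd, Lss, Tm7sf2 and Sc5d) it was 0.03 to 0.20, under the scanner error. Both arrays lay above both controls for 1 sterol enzyme, Hsd17b7, against 22.6% of genes. Set against the 48 h control, the sterol median was -0.30 at high dose and -0.26 at low dose of 3 h, and Idi1 passed 2-fold at -1.04 and -1.08. The sterol enzymes differed little between the doses: high minus low dose had a median of 0.01 and ran from -0.18 to 0.30. Of all genes, 1.28% were 2-fold higher and 0.885% 2-fold lower at high than at low dose.

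At 48 h the sterol enzymes split. Pmvk, Mvk and Fdps, which act on the way to farnesyl diphosphate, rose with high dose, and 0 of 17 fell. The share that rose, 17.6%, stands beside 9.92% of all measured genes higher and 10.1% lower at 2-fold, so calls were common among all genes at this time. Of the 17, 11 were above 0, against 53.3% of all genes, and 6 were above 1.5-fold (35.3%), against 20.8%. The sterol median was 0.33 and that of all genes 0.05.

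Pmvk had the largest difference of any member. Its level was 7.45 with high dose against 4.33 in the control at 48 h, and between 4.33 and 4.42 on all 3 arrays of 3 h. The 48 h high-dose array stood 8.71-fold above its control (log2 3.12, scanner error 0.204), and a second Pmvk probe gave 2.96. The other 4 arrays lay within 0.10 of each other.

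Mvk stood at 4.25 with high dose against 2.90 in the control at 48 h, and at 3.20, 2.67 and 2.77 from control to high dose at 3 h. That is 2.55-fold higher at 48 h, and a second probe gave 1.39 on the log2 scale beside 1.35 for the first. Fdps read 4.37 with high dose against 3.20 in the control at 48 h, and 3.39, 2.83 and 2.87 on the 3 h arrays from control to high dose. Its 2.24-fold difference passed the limit against the 48 h control, and against the 3 h control the log2 difference was 0.98. Both genes were thus lowest on the doxycycline arrays of 3 h and highest with high dose at 48 h.

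Several other enzymes were higher at 48 h without reaching 2-fold over their own control. Mvd stood at 0.04 with high dose against -0.91 in the control at 48 h, and at -0.73, -1.11 and -1.12 from control to high dose at 3 h. Sqle read 3.16 with high dose against 2.35 in the control at 48 h, after 2.43, 2.01 and 2.06 at 3 h. Lss read 0.86 with high dose against 0.08 in the control at 48 h, and -0.06, -0.31 and -0.23 at 3 h. The differences at 48 h were 0.95, 0.82 and 0.78, and each gene was lower with doxycycline than in the control at 3 h. Cyp51 was at -0.91 against -1.43 (0.52), Nsdhl differed by 0.43 and Ebp by 0.34. Idi1 and Fdft1, the lowest of the set at 3 h, were at -0.04 and -0.16, within the scanner error of 0. Hmgcs1 and Acat2 were at -0.22 and -0.20, near that error.

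The enzymes can be divided at farnesyl diphosphate, a division made after their values were seen. At 48 h the 7 enzymes up to it had a median of 0.95 and the 10 after it 0.27. Above 0 were 4 of the 7 (57.1%) and 7 of the 10 (70%), against 53.3% of all genes. The 7 ran from -0.22 to 3.12, so they did not rise together. At 3 h with high dose the medians were -0.39 and -0.25. Between the high-dose arrays themselves, 48 h against 3 h, 6 sterol enzymes rose: Mvk by 1.49, Pmvk by 3.02, Mvd by 1.16, Fdps by 1.49, Sqle by 1.10 and Lss by 1.09. Their 35.3% share stands beside 9.13% of all genes higher and 8.43% lower between those arrays. Idi1 was at 0.998, just short of the limit. Mvd (0.92) and Lss (0.99) lost the call with normexp and Sqle (0.98) with quantile normalization.

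**Figure D2:**
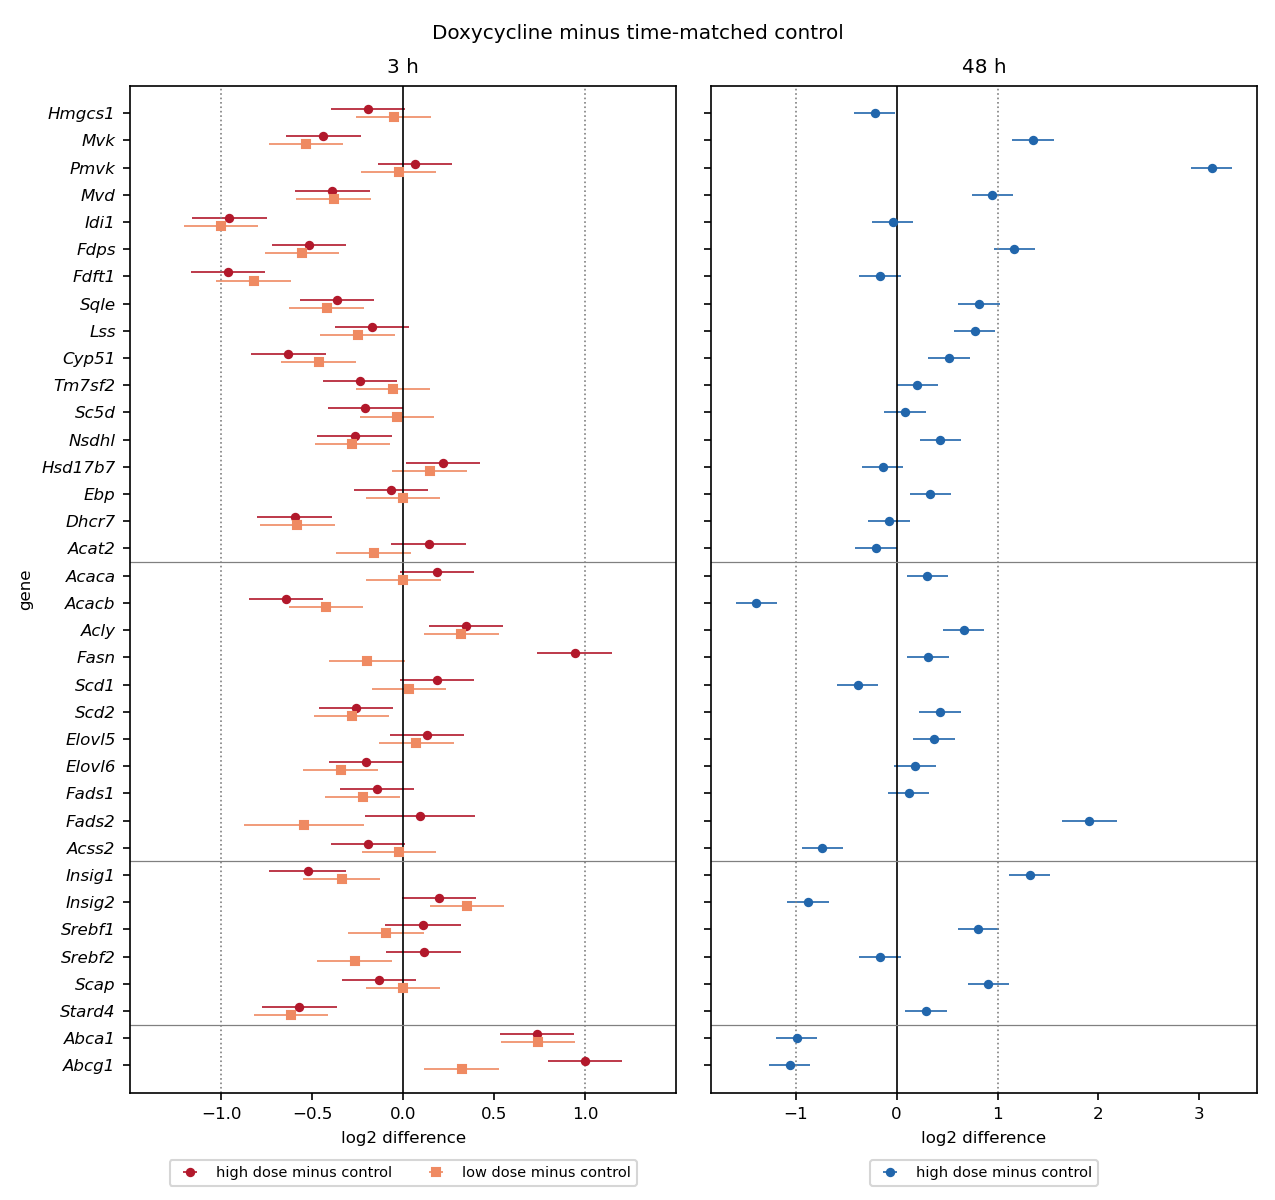
Log2 difference from the time-matched control for each gene, at 3 h for high dose (circles) and low dose (squares) on the left and at 48 h for high dose on the right; bars are the scanner error and dotted lines mark 2-fold. No gene lies past the dotted lines at 3 h, and Mvk, Pmvk, Fdps, Fads2 and Insig1 lie above and Acacb and Abcg1 below them at 48 h.

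The fatty acid enzymes had no shared direction at 3 h. The median of the 11 was 0.09 at high dose, with 5 of 11 below 0, and -0.20 at low dose, with 7 of 11 below 0. Fasn, fatty acid synthase, which builds palmitate, differed most between the doses. It stood at -1.76 in the control, -1.96 at low dose and -0.82 at high dose at 3 h, and at -0.996 with high dose against -1.31 in the control at 48 h. High dose was above low dose by 1.14, or 2.21-fold, the only member called between the doses, and above the 3 h control by 0.94, short of 2-fold. Against the 48 h control the high-dose value at 3 h was higher by 0.49. With background modelled by normexp, the high-to-low difference was 0.90 and no longer called.

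Acacb, the acetyl-CoA carboxylase at the mitochondrial surface, whose product restrains fatty acid oxidation, was lower with doxycycline on all 3 treated arrays. It read 0.82, 0.39 and 0.17 from control to high dose at 3 h, and -0.32 with high dose against 1.07 in the control at 48 h. The difference at 48 h was -1.39, a 2.62-fold fall, and those at 3 h were -0.64 at high dose and -0.42 at low dose. Acaca, the cytosolic carboxylase that feeds Fasn, went the other way by less than 2-fold, with 0.30 at 48 h and 0.18 at 3 h with high dose. A dimmer second Acacb probe, above background on 4 arrays, differed by -0.16 at both doses at 3 h and by -1.54 at 48 h. The 3 h size of the Acacb difference thus rests on the brighter probe.

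Fads2, the desaturase that starts the synthesis of polyunsaturated fatty acids, rose 3.76-fold with high dose at 48 h. Its level was -2.60 with high dose against -4.51 in the control at 48 h, and -4.23, -4.78 and -4.14 on the 3 h arrays from control to high dose. The signal was dim, and with normexp the difference was 1.09 in place of 1.91, still past 2-fold. Fads1, its partner desaturase, differed by 0.12.

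Acly, which splits citrate to acetyl-CoA, was 4.89 in the control, 5.21 at low dose and 5.24 at high dose at 3 h, and 5.87 with high dose against 5.21 in the control at 48 h. Acss2, which makes acetyl-CoA from acetate, was 0.82 with high dose against 1.56 in the control at 48 h, and lay between 1.24 and 1.44 at 3 h. So the citrate and acetate routes to acetyl-CoA lay on opposite sides of their control at 48 h, at 0.66 and -0.74, neither past 2-fold. The stearoyl-CoA desaturases also parted, with -0.38 for Scd1 and 0.43 for Scd2. The elongases Elovl5 and Elovl6 were at 0.37 and 0.18.

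Set side by side, the sterol and fatty acid arms lay furthest apart, among comparisons with the time-matched control, at 3 h with high dose. There the sterol median was lower by 0.36 than the fatty acid median, and with low dose it was lower by 0.08. At 48 h the sterol median was 0.33 and the fatty acid median 0.30, and 1 fatty acid enzyme rose and 1 fell, each 9.09% of the 11 and near the 9.92% and 10.1% of all genes. Between the high-dose arrays, 48 h against 3 h, the sterol median was 0.70 and the fatty acid median 0.17. For 5 of 11 fatty acid enzymes (45.5%) both doxycycline arrays of 3 h were below both controls. The same held for 13 of 17 sterol enzymes and for 22.3% of measured genes. The gap was under the scanner error for 3 of the 5 (Elovl6, Fads1 and Acss2) and for 6 of the 13. With 1 array per group the difference between the arms was not tested.

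**Figure D3:**
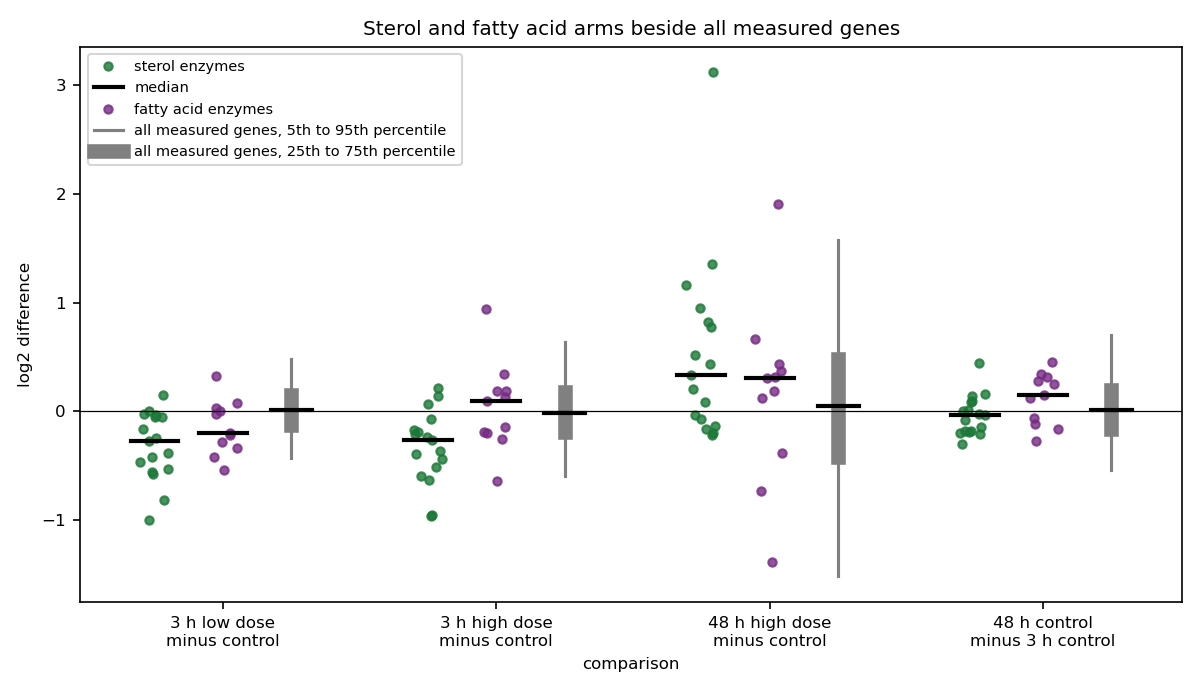
Log2 differences of the sterol enzymes (17 points) and the fatty acid enzymes (11 points) in 4 comparisons, with black lines at the medians and grey bars for the percentiles of all measured genes. The sterol points lie mostly below 0 at 3 h, the spread of all genes is widest at 48 h, and both arms sit near 0 between the controls.

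Among the regulators, Insig1 changed most. It stood at -2.04 in the control, -2.38 at low dose and -2.57 at high dose at 3 h, and at -0.80 with high dose against -2.12 in the control at 48 h. The 48 h difference was 1.32, or 2.49-fold higher, and those at 3 h were -0.53 at high dose and -0.34 at low dose. Insig2, the second INSIG gene, ran opposite, at 3.73, 4.08 and 3.92 from control to high dose at 3 h, and 2.79 with high dose against 3.67 in the control at 48 h. Its difference was -0.88 at 48 h, and from the 3 h to the 48 h high-dose array it fell by 1.14. A second Insig2 probe was likewise above the 3 h control at both doses and below the control at 48 h.

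Srebf1 read -1.66, -1.76 and -1.55 from control to high dose at 3 h, and -0.28 with high dose against -1.09 in the control at 48 h. The difference was 0.81 at 48 h, and 1.38 against the 3 h control, since the controls themselves differed by 0.57. Srebf2 stood at -1.05, -1.31 and -0.93 at 3 h, and at -1.17 with high dose against -1.01 in the control at 48 h. All Srebf2 differences from the time-matched control were at most 0.27 in size.

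Scap was 4.28, 4.28 and 4.15 from control to high dose at 3 h, and 5.22 with high dose against 4.31 in the control at 48 h, a difference of 0.91. Stard4, a cytosolic sterol carrier and SREBP target, was at -0.34 in the control, -0.96 at low dose and -0.91 at high dose at 3 h, and -0.03 with high dose against -0.32 in the control at 48 h. Its doxycycline arrays at 3 h lay 0.57 below both controls, the widest such gap among the 36 after those of Idi1 and Fdft1. A dimmer Stard4 probe, above background on 3 arrays, was at 0.87 in place of -0.57 at high dose, so the probes disagree.

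The exporters ran against most sterol enzymes. Abca1, which loads cholesterol onto lipid-poor apolipoprotein, stood at 0.74 in the control, 1.48 at low dose and 1.48 at high dose at 3 h, and at 0.53 with high dose against 1.51 in the control at 48 h. Its differences were 0.73 at high dose and 0.74 at low dose at 3 h, and -0.99 at 48 h. Abcg1, which exports sterol to formed lipoproteins, read -0.84, -0.52 and 0.16 from control to high dose at 3 h, and -1.19 with high dose against -0.13 in the control at 48 h. It differed by 0.997 at 3 h with high dose and by 0.32 with low dose, and fell 2.09-fold at 48 h (log2 -1.06).

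The early values of the exporters rest on the 3 h control. The controls differed by 0.77 for Abca1 and 0.71 for Abcg1, higher at 48 h. Against the 48 h control, the high-dose array of 3 h was at -0.03 for Abca1 and 0.29 for Abcg1. Against the 3 h control, the 48 h high-dose array was at -0.22 and -0.35. So neither the early nor the late difference kept its size when the control of the other time was used.

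**Figure D4:**
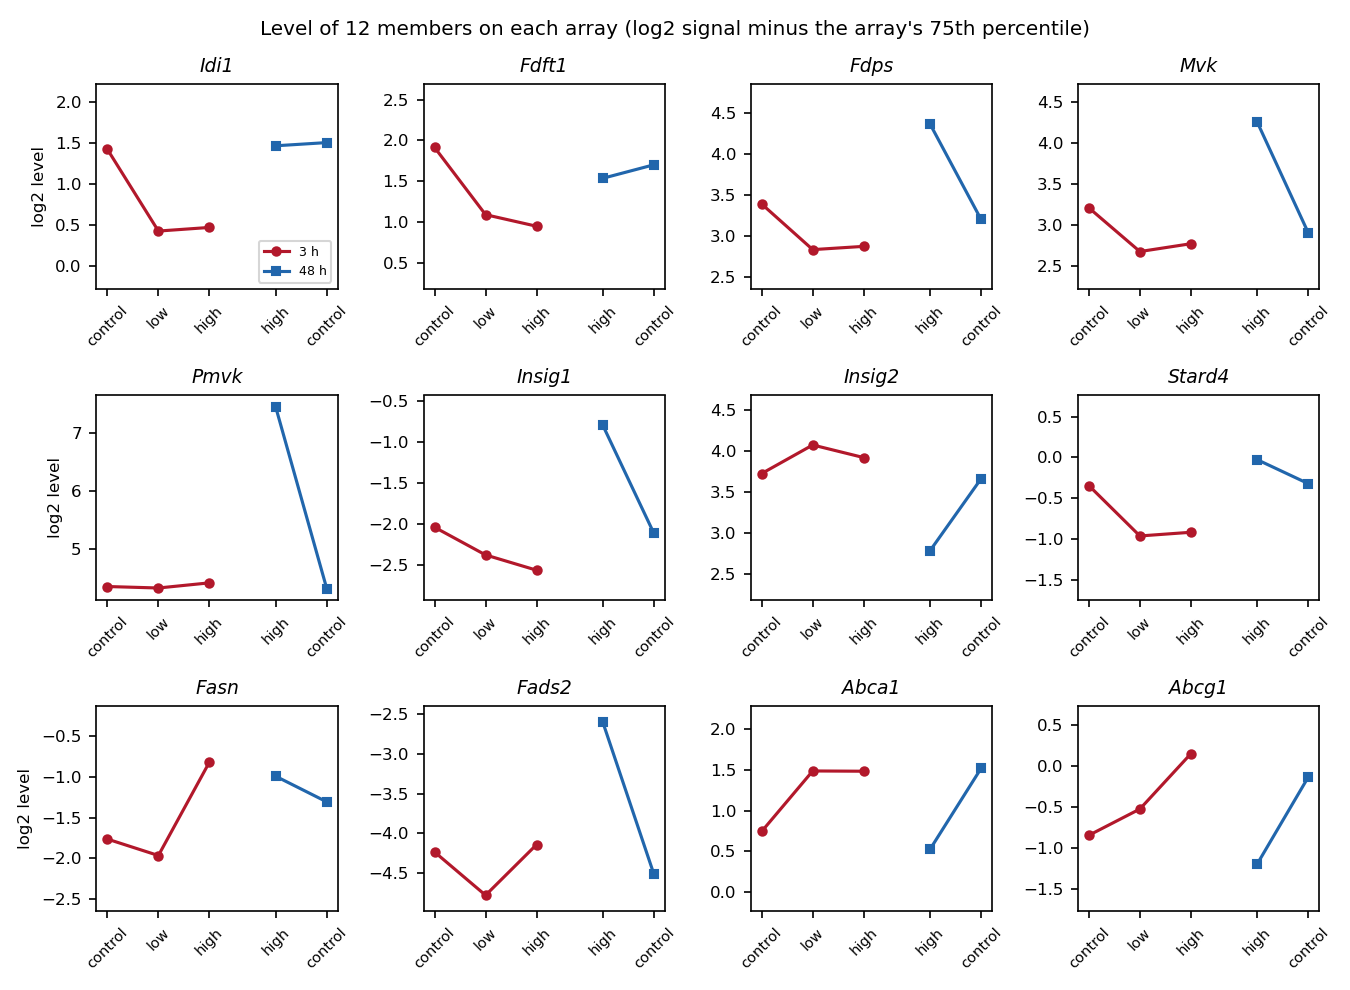
Log2 level (signal minus the 75th percentile of the array) of 12 genes on each array, with the 3 h arrays in red from control to high dose and the 48 h arrays in blue with high dose left of control. Idi1, Fdft1 and Stard4 stand lower with doxycycline at 3 h and are near their control at 48 h, Pmvk stands high on 1 array, and the exporters' 48 h control lies above their 3 h control.

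Between the controls, 48 h against 3 h, 0 of 36 members passed 2-fold, beside 2.5% of all genes higher and 1.36% lower. The sterol median was -0.03 and the fatty acid median 0.15. The members' differences between controls ran from -0.30 for Mvk to 0.77 for Abca1, and those past 1.5-fold were the exporters. Idi1 and Fdft1, which had the largest sterol differences at 3 h, were at 0.08 and -0.21 between the controls. Cell type markers differed more, beside the same shares of all genes. Higher at 48 h by 2-fold were 2 of 4 measured adipocyte markers (median 0.86) and 2 of 6 fibroblast markers (median 0.30). Of 4 measured macrophage markers, 2 were lower (median -0.40). Among 8 proliferation genes 0 passed 2-fold. The part of this in comparisons with the 48 h control was not tested.

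Signs differed between the times for many sterol genes. Of the 17 sterol enzymes, 10 were below the control at 3 h with high dose and above it at 48 h, as were 3 of 6 regulators and 3 of 11 fatty acid enzymes, against 25.1% of all genes. For 3 of the 17 sterol enzymes, Mvk, Fdps and Cyp51, both effects were beyond 1.96 times the scanner error. That error leaves out the variation between cultures, and how many of all genes meet the rule was not counted. Both exporters were above the control at 3 h with high dose and below it at 48 h. With high dose at 48 h, 22 of the 36 members (61.1%) had their highest level of the 5 arrays, against 41.0% of genes measured on all 5. Another 7 members had their lowest level there, a count that was not made over all genes.

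One fit left room for a test. The control and high-dose arrays of both times were fitted in limma with terms for time and for high dose, leaving 1 residual degree of freedom, and p-values were adjusted over 14595 genes. The fit called 0 genes (0%), 497 had an unadjusted p under 0.05, and 1 member was among these. That was Acacb, with a log2 difference of -1.02 (SE 0.32, adjusted p = 0.884 in limma), lower with high dose in 2 of 2 pairs of arrays. Pmvk had a difference of 1.59 (SE 0.80, adjusted p = 0.884 in limma). A change at 1 time only, or in opposite directions, counts as error in that fit.

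Genes next to these pathways gave further context, each list counted whole. Of 16 measured genes of SREBP processing and sterol handling, 0 passed 2-fold at 3 h with high dose, and at 48 h 1 rose and 3 fell (median -0.19). Tmem97, a sterol-regulated receptor of the endoplasmic reticulum, rose by 1.14. Mylip, the ubiquitin ligase induced by liver X receptors that degrades lipoprotein receptors, fell by 3.95. Nr1h3, which encodes liver X receptor alpha, fell by 1.31 and Lipa, the lysosomal acid lipase, fell by 1.13. Against the 3 h control the Nr1h3 difference was -0.55 and that of Tmem97 0.99, neither past 2-fold. The list's calls, 6.25% higher and 18.8% lower, stand beside the 9.92% and 10.1% of all genes.

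The isoprenoid branch, which draws on farnesyl diphosphate for prenylation and ubiquinone, had 1 of 8 genes higher at 48 h, Pdss1, which builds the ubiquinone tail, by 1.04, and a median of -0.15. Against the 3 h control Pdss1 was at 0.82, and 1 gene of 8 is close to the 9.92% of all genes higher. Among 15 measured genes of citrate, NADPH and acyl supply the median was 0.28. Acsl5, which activates fatty acids, rose by 1.46, and Thrsp, a lipogenic regulator, was at least 8.66-fold lower, its signal being not well above background with high dose. At 3 h neither list had a member past 2-fold with high dose, though Thrsp was just short of it at -0.999. With low dose Thrsp was lower by 1.40. That was 1 of 16 measured genes of the supply list (6.25%), beside 0.583% of all genes lower.

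Glycerolipid synthesis had 1 of 10 genes higher and 2 lower at 48 h, beside 9.92% and 10.1% of all genes. Its triglyceride-forming acyltransferases parted, as Dgat1 rose by 1.43 and Dgat2 fell by 2.09, and Plin2, a lipid droplet coat protein, fell by 1.27. Against the 3 h control Plin2 was at -0.66. Gpam, which begins glycerolipid synthesis, was higher at 3 h with high dose by 1.05, but by 0.40 against the 48 h control. Its signal was dim, at -3.40 with high dose against -4.45 in the 3 h control, with a scanner error of 0.308. It was the 1 gene of the 10 called higher there, beside 1.86% of all genes. Of 10 genes of fatty acid oxidation 1 rose and 2 fell at 48 h (median -0.55), beside the same 9.92% and 10.1%. Cpt1a, the mitochondrial gate that the product of Acacb inhibits, fell by 2.81, and Acadl, an acyl-CoA dehydrogenase, fell by 1.51.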

How the data were processed

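Total RNA of 5 cultures was labelled with Cy3 and hybridised to Agilent arrays, 1 per group, on 1 slide read in 1 scan. Linear spot intensities were deposited, background-subtracted by the scanner software within each array and not normalised between arrays, per the file headers. The submitters' processing notes name Agilent Feature Extraction 10.7.3.1. Each intensity was taken to log2, the 75th percentile over the non-control spots of the array was subtracted, outlier spots were dropped, and a probe's spots were averaged. Above background means that a share of 0.5 or more of those spots was flagged so. Of 55681 probes, 26407 received 1 symbol, 0 several and 29274 none, by matching accessions to RefSeq on GRCm38.p6, used for names and promoter windows; the files name an older build, and no coordinate of the files was used. The probe with the highest mean over the arrays stood for its gene. Of the members, 23 had 1 probe and 13 more; of 14 further probes, 12 lay within 0.5 of the brightest probe's difference at 3 h with high dose and 11 at 48 h.

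Differences were called at 2-fold where both arrays were above background. With 1 array per group no p-value is given for them, and the number of arrays limits the precision. A bound compares the bright array with the probe's own signal or, if higher, the lowest above-background signal of the dim array. The test was limma 3.58.1 in R 4.3.3 with an intensity trend and Benjamini-Hochberg adjustment at 0.05, for genes above background on 2 or more of 4 arrays. Both rules were run on simulated data. The simulation of the 2-fold rule held scanner error but no variation between cultures, and that of limma held equal changes at both times. Neither setting matches these arrays, so neither shows how the rules perform on them. Levels are printed for members past 2-fold in any comparison, for the 3 sterol and 3 fatty acid enzymes with the largest differences at each time, and for all regulators and exporters; genes of related lists are named where they passed 2-fold with high dose. Dhcr7 and smaller differences are named to account for every member. The members and lists were chosen with earlier results of these data known, and the values of some listed genes are not reported here. Alternatives were median scaling, quantile normalization, normexp (offset 50), no filter on dim probes, the mean of a gene's probes, the deposited value table, a 1.5-fold limit, the control of the other time and, in limma, no trend. Normexp used the median foreground and background signals, in place of the mean signal.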

Additional observations from a re-analysis of the deposited data

Results flagged for a closer look

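The difference between the 48 h and the 3 h effect of high dose is listed for 6 members whose effects had opposite signs at the 2 times, each beyond 1.96 times its scanner error. With 1 array per group the difference was not tested, and how many of all genes meet the same rule was not counted. Insig1 had 1.32 at 48 h and -0.53 at 3 h, 1.84 apart. For Mvk the effects were 1.35 and -0.44, 1.79 apart, and for Fdps 1.17 and -0.52, 1.68 apart. Cyp51 was at 0.52 and -0.63, 1.15 apart. The exporters went the other way, with Abca1 at -0.99 at 48 h and 0.73 at 3 h (a change of -1.72) and Abcg1 at -1.06 and 0.997 (a change of -2.06). For both exporters the 48 h control stood above the 3 h control, by 0.77 and 0.71.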

How the results depend on the processing

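Over 1404 recomputed member values, 1342 stayed within the scanner error of the value reported, 62 moved beyond it and 0 changed sign among called values; all arm medians stayed within that error. At 3 h with high dose, 0 members were higher and 0 lower. Higher calls numbered 1 in the deposited value table (Abcg1) and 3 at 1.5-fold. Lower calls numbered 2 with median scaling (Idi1, Fdft1), 1 with the mean of probes (Fdft1), 1 against the 48 h control (Idi1) and 5 at 1.5-fold. At 3 h with low dose, also 0 and 0, lower calls were 1 with median scaling, 1 with quantile normalization, 1 in the value table and 1 against the 48 h control (Idi1 each time), 1 with the mean of probes (Fdft1) and 3 at 1.5-fold, and higher calls 1 at 1.5-fold. High above low dose, 1 member (Fasn), became 0 with normexp and 3 at 1.5-fold. At 48 h the 5 higher calls became 11 and the 2 lower calls 5 at 1.5-fold, and the lower calls 1 against the 3 h control (Acacb). Fdps (quantile) and Abcg1 (normexp, -0.81) lost their calls at 48 h and Abca1 gained one (normexp). Between the controls, 2 members were higher at 1.5-fold and 1 lower with the mean of probes (Fdft1, -1.33), against 0 and 0. The 10 higher calls between the high-dose arrays became 17 at 1.5-fold, 7 with normexp (without Mvd, Lss and Fads2) and 9 with quantile normalization (without Sqle and Scap, with Idi1). Pmvk at 48 h was 2.63 with quantile normalization. The limma fit called 4 genes without the filter on dim probes, 0 of them members, against 0 with it. Median scaling moved the all-gene median at 3 h with high dose to -0.14, from -0.01, so Idi1 and Fdft1 passed 2-fold there partly by construction. The causes of the other moves were not tested. No paired analysis was possible because the labels give no replicate numbers, beyond the pairing of arrays by time in the limma fit. With 1 array per group no replicate could be left out.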
